A study of Mus musculus with 8 samples.

Results

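Enc1, Onecut2, Sdc4 and Zfp462 are 4 of the 21490 genes to which the peaks of this series were assigned. Among the markers of undifferentiated spermatogonia that the study displays, they were selected on measured values, namely how many of their distal peaks were present before retinoic acid (RA) and absent after it, so the difference between 0 h and the later timepoints is described here and not tested. Of the 328733 peaks in 8 libraries, 126 were assigned to one of these genes. Merged across libraries, they formed 32 of 87144 accessible regions, of which Enc1 and Onecut2 had 7 each and Sdc4 and Zfp462 had 9 each.

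ATAC-seq, in which a transposase cuts and tags open chromatin, was carried out on eGFP-positive germ cells, sorted from testes of PIWIL2-eGFP mice. All mice were fed WIN 18,446, which blocks RA synthesis, at 100 mg/kg for 7 days from 2 dpp, so that spermatogonia were held before differentiation. At 9 dpp they were collected without an RA injection (0 h) or injected with 200 µg RA in dimethyl sulfoxide. Injected mice were collected 18, 48 or 120 h later, with 2 libraries for every timepoint, each from 1 mouse. RA, its solvent, the time since the last WIN 18,446 dose and age differed together between 0 h and later, and cannot be told apart. Times named as after RA carry all of these. The transgene marks all germ cells of these testes and not a single spermatogonial stage, so a timepoint is named here by its time and not by a cell stage. The labels give the mice as derived from C57BL/6 x 129s4/SvJae and 100000 cells per replicate, whereas the methods give a C57BL/6 x SJL background and 50000 cells.

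RA starts the irreversible change of undifferentiated spermatogonia into differentiating ones, and the chromatin around genes that mark the undifferentiated state can be followed through this change. Enc1 encodes an actin-binding protein with BTB and kelch domains, Onecut2 encodes a transcription factor with a cut domain and a homeodomain, Sdc4 encodes syndecan-4, a heparan sulfate proteoglycan of the cell surface that acts as a co-receptor for growth factors, and Zfp462 encodes a zinc finger protein that binds chromatin and is known from embryonic stem cells. An accessible region can be a promoter at the gene start or a distal region, such as an enhancer, and accessibility alone does not tell which gene a distal region serves. Transcript levels were not analysed here.

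The libraries held 72215 and 69089 peaks at 0 h and between 24643 and 39551 at the later timepoints, after the authors had reduced all of them to the same number of tags. The height of a peak is its summit value, the tag coverage at its highest point, and no library had a summit value below 24. Where no peak was called, the height is below the calling limit and unknown, and no fold is given. All 5 germ cell markers (Ddx4, Dazl, Piwil2, Tdrd1, Sall4) had a peak within 1000 bp of their start in both 0 h libraries, with summed summit values of 2166 to 2610 at 0 h and 767 to 1658 later. Later, Ddx4, Dazl, Piwil2 and Sall4 had one in every library, and Tdrd1 only in replicate 1 after 48 h (66). All 5 Sertoli cell markers (Sox9, Wt1, Amh, Gata4, Cldn11) also had such a peak in both 0 h libraries, summing to 531 to 698 at 0 h and 105 to 246 later. Wt1 had one in every later library, Sox9, Amh and Gata4 in some, and Cldn11 in none. The 3 peritubular myoid cell markers (Acta2, Myh11, Des) summed to 393 to 458 at 0 h and 86 to 276 later. None of the 4 Leydig cell markers (Cyp11a1, Hsd3b1, Star, Insl3) or 3 endothelial markers (Pecam1, Cdh5, Tie1) had a peak at the start in any library, and of the 3 blood cell markers (Ptprc, Csf1r, Adgre1) only Csf1r had one, of 36 in 1 library at 0 h. The part of other cells in the values below was not tested, and in sorted bulk samples fewer cells with an open region cannot be told apart from less accessibility per cell.

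All 4 genes had more peaks in both 0 h libraries than in any later library, in the deposited numbers, whereas relative to all peaks of a library Sdc4 had fewer at 0 h. Enc1 had 6 and 6 peaks at 0 h, 1 and 2 after 18 h, 2 and 2 after 48 h, and 4 and 1 after 120 h. Onecut2 had 7 and 8 peaks at 0 h, 3 and 5 after 18 h, 2 and 3 after 48 h, and 6 and 2 after 120 h. Its highest later library, replicate 1 after 120 h, was 1 peak below the lower 0 h library. Sdc4 had 6 and 7 peaks at 0 h, 4 and 4 after 18 h, 4 and 5 after 48 h, and 5 and 3 after 120 h. Zfp462 had 8 and 9 peaks at 0 h, 2 and 4 after 18 h, 0 and 2 after 48 h, and 3 and 0 after 120 h, and was the only member without any peak in some libraries. The mean at 0 h minus the mean of the 6 later libraries was 6.67 peaks for Zfp462, 4.0 for Enc1 and for Onecut2, and 2.33 for Sdc4. Ptch1, the receptor of hedgehog ligands and displayed in the study beside these genes, is not in the set although its difference was 5.0 peaks, with 9 and 8 peaks at 0 h and 1 to 5 later.

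**Figure D1:**
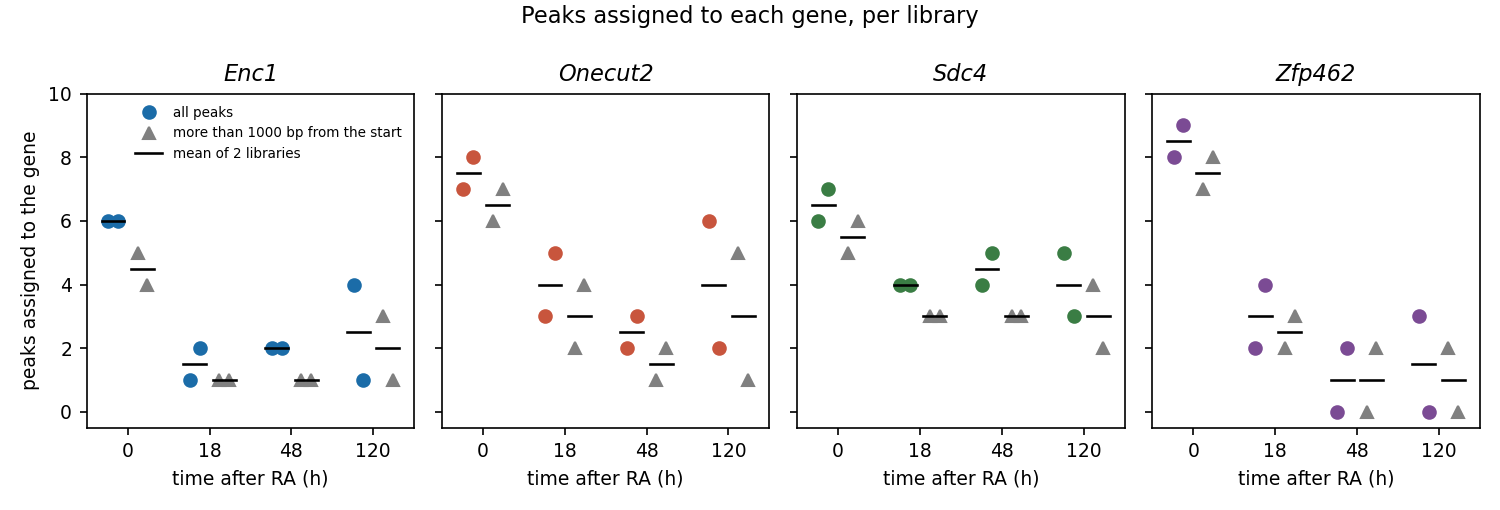
Peaks assigned to Enc1, Onecut2, Sdc4 and Zfp462 (y axis, number of peaks) against time after RA (x axis, h), with 1 point per library and a bar at the mean of 2 libraries, for all peaks and for peaks more than 1000 bp from the gene start. For all peaks, not scaled to the peaks of the library, the 0 h points lie above every later point in each gene, and the replicates after 120 h lie apart, with 6 and 2 peaks in Onecut2.

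Such a separation was common. Of 20673 genes with a peak in both libraries of some timepoint, 38.4% had more peaks in both 0 h libraries than in any later library, and of the 1918 genes with at least 6 peaks in both 0 h libraries, as all members have, 86.5% did. The median difference of these 1918 genes was 4.5 peaks and their 90th percentile was 8.67. Sdc4 lay low in this distribution, with 9.44% of the genes below it, Enc1 and Onecut2 had 39.5% of the genes below them, and Zfp462 had 79.9%. The ratio of mean peaks at 0 h to later ones was 4.64 in Zfp462, 3.0 in Enc1, 2.14 in Onecut2 and 1.56 in Sdc4, beside a median of 2.23. Among genes with this many peaks, Enc1 and Zfp462 thus lost a larger share of their peaks than the median gene, and Onecut2 and Sdc4 a smaller one. In number of peaks, Enc1, Onecut2 and Sdc4 lost fewer than the median of these comparable genes, and of the 4 only Zfp462 lay above it. The label of genes that lose many peaks therefore does not set Enc1, Onecut2 and Sdc4 apart in number.

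**Figure D2:**
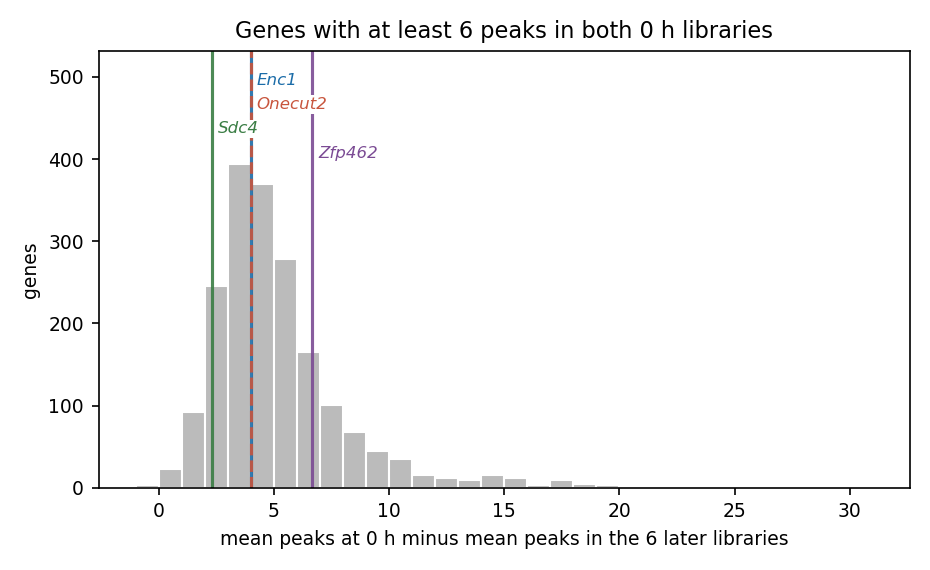
Number of genes (y axis) by the mean number of peaks at 0 h minus the mean in the 6 later libraries (x axis, peaks), for the 1918 genes with at least 6 peaks in both 0 h libraries, with a line for each member. Enc1 and Onecut2 share a line at 4.0, left of the median of 4.5, Sdc4 lies at 2.33 and Zfp462 at 6.67.

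The number of peaks in a library moved with these counts. Per 10000 peaks of the library, the 4 genes together had 3.74 and 4.34 peaks at 0 h, 3.46 and 4.36 after 18 h, 3.08 and 3.53 after 48 h, and 4.55 and 2.43 after 120 h, and on this scale the 0 h libraries overlapped the later ones. The genes differed in it, by a comparison added after the values were seen. Sdc4 had 0.831 and 1.01 peaks per 10000 at 0 h and 1.16 to 1.54 later, so that its direction was reversed and both 0 h libraries lay below every later one. Onecut2, with 0.969 and 1.16 at 0 h and 0.771 to 1.52 later, had nearly the same mean at 0 h (1.06) as later (1.08). Enc1 and Zfp462 had higher means at 0 h, 0.850 against 0.617 and 1.21 against 0.534, but Enc1 overlapped through replicate 1 after 120 h (1.01) and Zfp462 through replicate 2 after 18 h (1.16). With every library cut to its 24643 highest peaks, which is all that the smallest library has, the difference was 2.0 for Enc1, 1.17 for Onecut2, 1.17 for Sdc4 and 1.67 for Zfp462. Under this limit Zfp462 had 3 and 3 peaks at 0 h and 2 and 3 after 18 h, so that these timepoints overlapped, and Sdc4 had 5 and 4 at 0 h and 4 in each library after 18 and 48 h. Enc1, with 4 and 3 peaks at 0 h and 1 or 2 later, did not overlap, nor did Onecut2, with 3 and 3 at 0 h and 1 or 2 later.

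Most of the peaks that were absent later lay away from the gene start, as did most peaks at 0 h. The genes were selected on their distal peaks, so this is a description only. More than 1000 bp from the start, by the distances in the deposited table, the 4 genes together had 23 and 25 peaks at 0 h and between 4 and 14 in the later libraries. Within 1000 bp they had 4 and 5 peaks at 0 h and between 2 and 4 later. Onecut2 kept exactly 1 peak near its start in every library, Sdc4 had 1 in all libraries except replicate 2 after 48 h, which had 2, and Enc1 and Zfp462 lacked one in some later libraries. Inside the transcribed genes there were 14 and 14 peaks at 0 h and 2 to 7 later, upstream 9 and 11 and then 3 to 8, and downstream 4 and 5 and then 1 to 3.

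Followed by position, 24 of the 32 regions had a peak in both 0 h libraries. Of these, 13 were counted at 0 h only (54.2%), meaning that no later timepoint had a peak in both libraries, and over all 59063 regions at 0 h the share was 51.7%. Among the 13, 6 had no later peak at all, 3 had a peak in 1 later library and 4 in more. Another 5 regions (20.8%) had a peak in all 8 libraries, beside 26.3% of all regions at 0 h, and 6 were kept at some later timepoints. The remaining 8 regions were in both libraries of no timepoint, 7 of them in a single library, and 1 of these, inside Sdc4, was seen only after RA. Both shares were close to those of all regions.

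**Figure D3:**
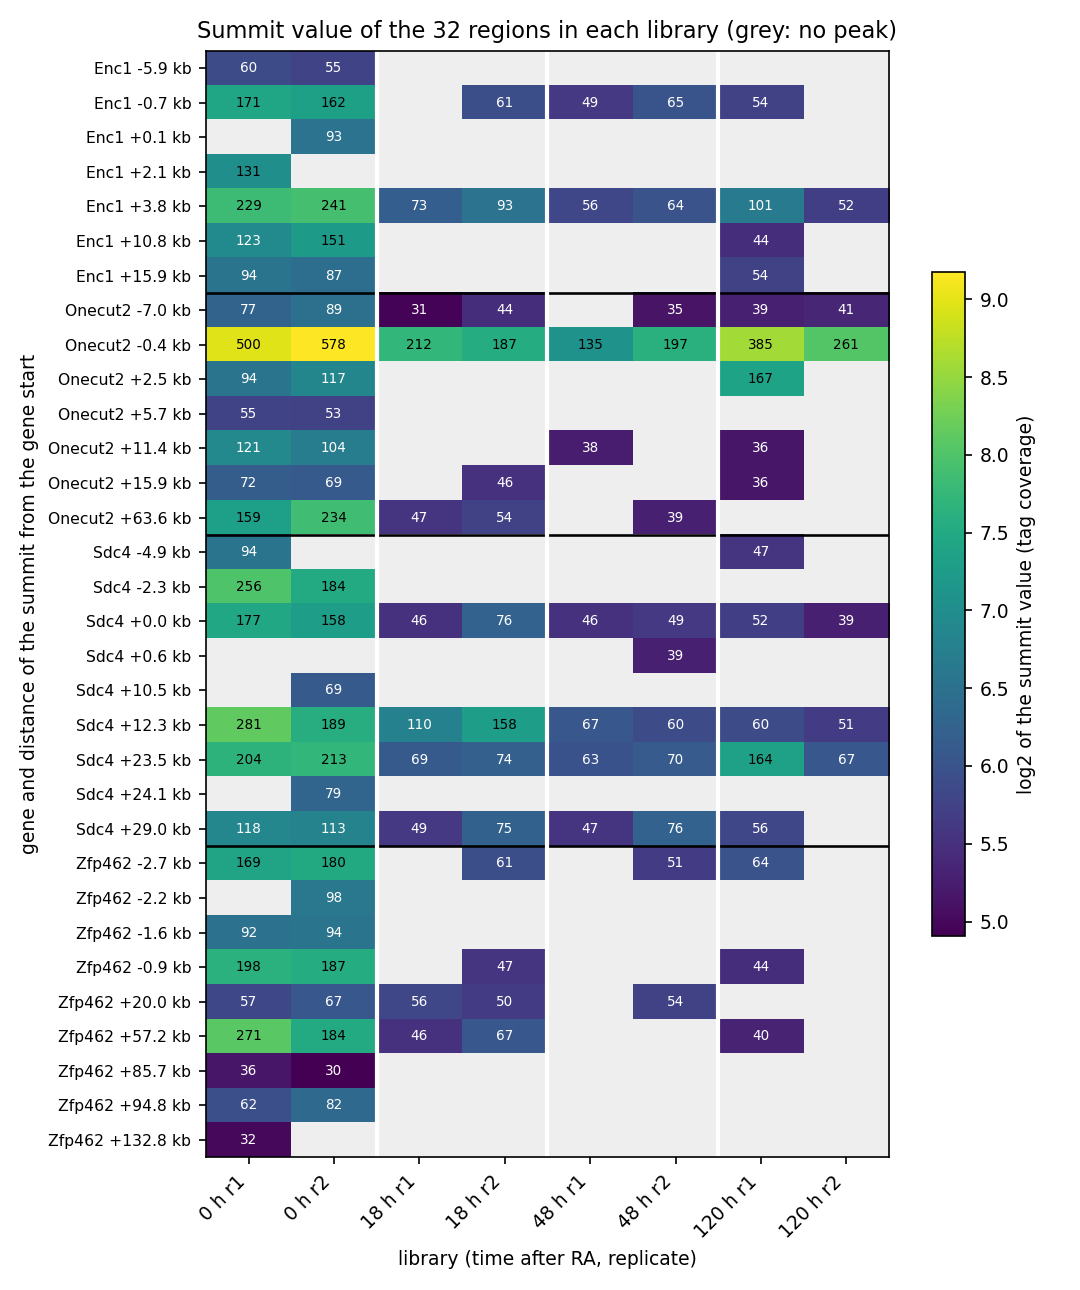
Summit value (number in each cell, and colour as log2 of the tag coverage) of the 32 regions in rows, ordered by gene and distance of the summit from the gene start in kb, in the 8 libraries in columns; grey cells have no peak. Onecut2 at its start reached 500 and 578 at 0 h, the highest values of the set, and Zfp462 is grey throughout in replicate 1 after 48 h and replicate 2 after 120 h.

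The genes differed in what was kept. The regions at 0 h only were 3 of 5 in Enc1, 4 of 7 in Onecut2, 1 of 5 in Sdc4 and 5 of 7 in Zfp462, and those seen in every library were 1 in Enc1, 1 in Onecut2, 3 in Sdc4 and 0 in Zfp462. At 18 h 10 of the 24 regions (41.7%) had a peak in both libraries, after 48 h 7 (29.2%) and after 120 h 6 (25%), beside 39.9%, 36.8% and 34.3% of all regions at 0 h. The 120 h libraries shared few of these peaks: 6 member regions had a peak in both, 11 in replicate 1 alone and 0 in replicate 2 alone, and over all regions 22112, 16155 and 1622. At 0 h, 24 member regions were in both libraries and 7 in only 1. Without replicate 2 after 120 h, 6 regions instead of 13 were counted at 0 h only. Replicate 2 after 120 h was the library with the fewest peaks, and it limits every count of regions kept there.

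Height at 0 h went with whether a peak was seen later. Of all regions at 0 h, 73.0% had no later peak where the lower 0 h summit value was under 50, 35.5% between 50 and 100, 4.87% between 100 and 200, and 0.146% at 200 or more. The member regions followed the same order, with 1 of 1, 4 of 9, 1 of 11 and 0 of 3. The 1 member region in the third class without a later peak lay upstream of Sdc4.

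**Figure D4:**
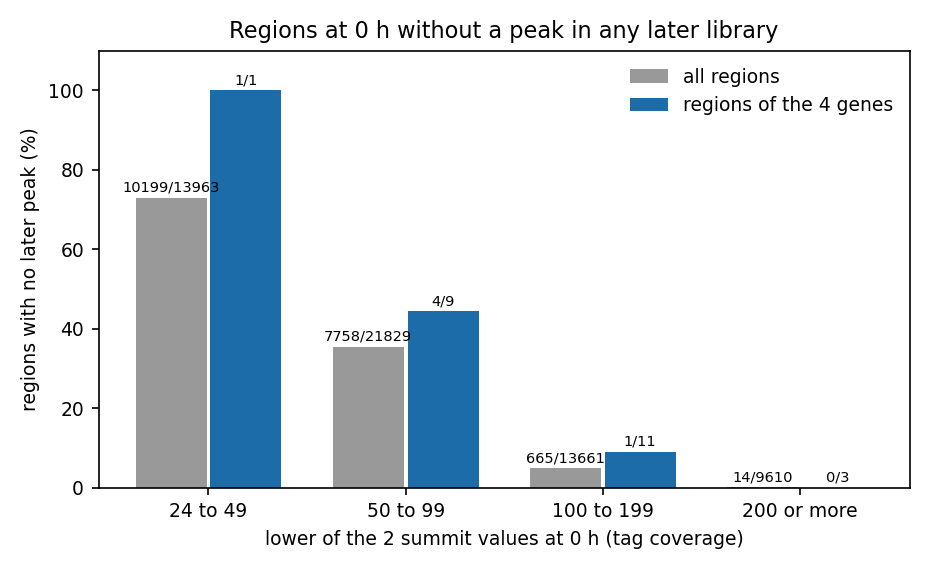
Share of regions at 0 h without a peak in any later library (y axis, %) by the lower of the 2 summit values at 0 h (x axis, tag coverage), for all regions and for the regions of the 4 genes, with counts above the bars. Both sets fall from left to right, from 73.0% to 0.146% over all regions and from 1 of 1 to 0 of 3 in the 4 genes.

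Enc1 lies on the plus strand of chromosome 13 (GENCODE vM21, GRCm38 chr13:97241105-97253034). Its main kept region lay 3791 bp into the gene, at the end of intron 1 and reaching into exon 2 (chr13:97244720-97245193), and its part before the exon is shown because it was the only Enc1 region with a peak in every library. The sequences here are of the plus strand of GRCm38, read from the RefSeq assembly, 5′ to 3′, and capitals mark matches to the motifs listed further on. In this stretch (chr13:97244747-97244970) they are 2 GC boxes that overlap by 1 base, an ETS core and an E-box.
Enc1 intron 1: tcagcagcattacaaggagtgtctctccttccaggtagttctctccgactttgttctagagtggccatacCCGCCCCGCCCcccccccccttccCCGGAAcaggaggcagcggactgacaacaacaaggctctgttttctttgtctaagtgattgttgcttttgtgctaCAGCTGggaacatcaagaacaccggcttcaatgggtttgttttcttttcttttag
Its summit values were 229 and 241 at 0 h, 73 and 93 after 18 h, 56 and 64 after 48 h, and 101 and 52 after 120 h. All later values were below both 0 h values, and after 120 h the replicates spanned the values of 48 h and 18 h. The CpG island region 657 bp upstream of the start (chr13:97240260-97240861) had 171 and 162 at 0 h, 61 in replicate 2 after 18 h, 49 and 65 after 48 h, and 54 in replicate 1 after 120 h. It was the only member region called at 0 and 48 h and at no other timepoint. The other Enc1 regions were mostly limited to 0 h. The region 10767 bp into the gene, in the UTR of exon 3, had 123 and 151, and later 44 in replicate 1 after 120 h. The downstream region at 15855 bp had 94 and 87, and later 54 in the same library. The region 5937 bp upstream had 60 and 55 at 0 h and no later peak, while regions at 79 bp, in exon 1, and at 2095 bp, in intron 1, were each in 1 library at 0 h with 93 and 131.

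Onecut2 lies on the plus strand of chromosome 18 (chr18:64340020-64400987), and its sequence is not printed here. The deposited table places its start downstream of the GENCODE one, so the region listed at 396 bp upstream (chr18:64339745-64340465) has its summit 52 bp from the annotated start and overlaps 2 CpG islands. It was the highest region of the set in every library, with 500 and 578 at 0 h, 212 and 187 after 18 h, 135 and 197 after 48 h, and 385 and 261 after 120 h. The values after 120 h lay between those of 0 h and those of 18 and 48 h without overlap. A second region with many later peaks, 6988 bp upstream of the start and within the gene St8sia3os, had 77 and 89 at 0 h and 31 to 44 in 5 later libraries. The downstream region at 63636 bp had 159 and 234 at 0 h, 47 and 54 after 18 h, and 39 in replicate 2 after 48 h. Neither had a value after RA within the range of 0 h.

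The intron 1 regions of Onecut2 behaved less alike. The CpG island region at 2516 bp had 94 and 117 at 0 h, no peak after 18 or 48 h, and 167 in replicate 1 after 120 h, above both 0 h values. Replicate 2 after 120 h had no peak there, so this value has no replicate. The region at 11380 bp had 121 and 104 at 0 h and later 38 and 36 in 1 library each after 48 and 120 h, and the one at 15924 bp had 72 and 69 and later 46 and 36 in 1 library each after 18 and 120 h. The region at 5748 bp had 55 and 53 at 0 h and no later peak.

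Sdc4 lies on the minus strand of chromosome 2 (chr2:164424247-164443887) and kept the most regions. The region 12276 bp from the start (chr2:164430474-164431377), with its summit in intron 2 and reaching across exon 2, is shown because it had the largest change between later timepoints. Its 300 bases around the summit (chr2:164430763-164431062) hold 1 forkhead motif, read on the other strand. The region 2252 bp upstream (chr2:164445156-164445772), 1553 bp from the start of the other annotated Sdc4 transcript, is shown because it was the highest member region at 0 h without any later peak. Its 300 bases (chr2:164445291-164445590) hold a nuclear receptor half-site, of the kind bound by RA receptors as pairs, a forkhead motif and an E-box.
Sdc4 intron 2: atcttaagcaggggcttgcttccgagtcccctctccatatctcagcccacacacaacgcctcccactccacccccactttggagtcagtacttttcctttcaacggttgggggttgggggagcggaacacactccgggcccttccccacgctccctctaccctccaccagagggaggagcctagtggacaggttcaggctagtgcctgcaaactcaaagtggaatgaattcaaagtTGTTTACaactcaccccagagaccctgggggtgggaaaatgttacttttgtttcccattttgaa
Sdc4 upstream: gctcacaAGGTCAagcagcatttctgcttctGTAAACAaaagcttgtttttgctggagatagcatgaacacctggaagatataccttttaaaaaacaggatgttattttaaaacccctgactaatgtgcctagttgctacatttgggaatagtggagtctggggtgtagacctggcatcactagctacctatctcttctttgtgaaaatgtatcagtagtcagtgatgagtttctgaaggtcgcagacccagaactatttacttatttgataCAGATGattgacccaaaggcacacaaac
The intron 2 region had 281 and 189 at 0 h, 110 and 158 after 18 h, 67 and 60 after 48 h, and 60 and 51 after 120 h. Both 18 h values lay between those of 0 h and those of 48 and 120 h. The upstream region had 256 and 184 at 0 h and none in the 6 later libraries. Of the 18636 regions at 0 h without a later peak, whose median lower 0 h value was 48, 23 had a higher one than this region. The genes were selected on distal peaks absent later, and this region was picked as their highest, so its rank is a description only.

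At the Sdc4 start, the CpG island region with its summit 20 bp into exon 1 (chr2:164443001-164443418) had 177 and 158 at 0 h and between 39 and 76 later. The downstream region at 23540 bp (chr2:164419482-164419832), assigned also to Rbpjl, had 204 and 213 at 0 h, 69 and 74 after 18 h, 63 and 70 after 48 h, and 164 and 67 after 120 h. The 120 h replicates differed more than any other pair of this region. The downstream region at 29044 bp, on a CpG island within Rbpjl and assigned also to Rbpjl and Matn4, had 118 and 113 at 0 h and 47 to 76 in 5 later libraries, with no peak in replicate 2 after 120 h. Regions shared with neighbouring genes cannot be attributed to Sdc4 by these data. The other 4 Sdc4 regions were never in both libraries of a timepoint: 94 and later 47 at 4876 bp upstream in replicate 1 at 0 and 120 h, 39 at 564 bp in replicate 2 after 48 h, and 69 at 10516 bp and 79 at 24148 bp in replicate 2 at 0 h.

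Zfp462 lies on the plus strand of chromosome 4 (chr4:54945048-55083563) and has several annotated starts. The intron 1 region 57207 bp from the start (chr4:55004790-55005903) had its highest mean summit value at 0 h, and the intron 1 region at 19991 bp (chr4:54967761-54968145) is shown because its height hardly differed between 0 and 18 h. Each holds in its 300 bases around the summit (chr4:55005003-55005302 and chr4:54967787-54968086) a nuclear receptor half-site and a SOX motif, and the second also an E-box. The region 1609 bp upstream (chr4:54946148-54946440) is shown as the strongest Zfp462 region without a later peak. Its summit lies outside annotated exons, 1288 bp from the start of transcript Zfp462-204. Its 300 bases (chr4:54946187-54946486) hold 1 GC box.
Zfp462 intron 1, high: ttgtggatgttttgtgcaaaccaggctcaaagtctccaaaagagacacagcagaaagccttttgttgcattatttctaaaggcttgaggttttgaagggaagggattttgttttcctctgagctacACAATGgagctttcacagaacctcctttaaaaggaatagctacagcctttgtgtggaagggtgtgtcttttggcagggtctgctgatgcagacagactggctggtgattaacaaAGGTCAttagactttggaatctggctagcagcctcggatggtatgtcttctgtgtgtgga
Zfp462 intron 1, early: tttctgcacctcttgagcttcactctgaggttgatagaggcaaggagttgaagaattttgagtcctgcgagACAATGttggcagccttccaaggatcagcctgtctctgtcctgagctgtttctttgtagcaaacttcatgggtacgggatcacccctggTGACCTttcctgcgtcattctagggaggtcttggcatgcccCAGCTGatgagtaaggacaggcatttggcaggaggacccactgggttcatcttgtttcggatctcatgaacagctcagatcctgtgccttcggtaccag
Zfp462 upstream: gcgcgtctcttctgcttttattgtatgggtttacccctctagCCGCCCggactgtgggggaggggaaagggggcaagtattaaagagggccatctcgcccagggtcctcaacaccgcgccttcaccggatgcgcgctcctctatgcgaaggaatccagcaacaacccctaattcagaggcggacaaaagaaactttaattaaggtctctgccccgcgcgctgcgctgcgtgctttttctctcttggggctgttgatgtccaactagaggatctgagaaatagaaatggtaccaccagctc
The high intron 1 region had 271 and 184 at 0 h, 46 and 67 after 18 h, no peak after 48 h, and 40 in replicate 1 after 120 h. The early intron 1 region had 57 and 67 at 0 h, 56 and 50 after 18 h, and 54 in replicate 2 after 48 h, so that 1 of 2 values after 18 h was within 1 unit of the lower 0 h value. The upstream region had 92 and 94 at 0 h and none later.

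The start of Zfp462 depends on the annotation. The CpG island region listed 2729 bp upstream (chr4:54944927-54945436), assigned also to Gm8364, has its summit 168 bp from the start of transcript Zfp462-204. It had 169 and 180 at 0 h, and later 61, 51 and 64 in 1 library each after 18, 48 and 120 h. The region 873 bp upstream (chr4:54946813-54947405) had 198 and 187 at 0 h, 47 in replicate 2 after 18 h and 44 in replicate 1 after 120 h. Thus no region near either start was called in both libraries of a timepoint after RA. Farther into the gene, in intron 7 of Zfp462-203, the regions at 85687 bp and 94807 bp had 36 and 30, and 62 and 82, at 0 h only. The regions 2233 bp upstream, with 98, and at 132791 bp in an exon, with 32, were in 1 library at 0 h each. By GENCODE transcript starts, 8 member regions lay within 1000 bp of a start and 5 of these were at 0 h, instead of 6 and 4 by the deposited distances.

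Heights could be compared throughout in the 5 member regions that were seen in every library. Between 0 h and later, which selected the genes, their median log2 change in summit value was -1.50 after 18 h, -1.82 after 48 h and -1.70 after 120 h. The median over all 15536 regions with a peak in all 8 libraries was -1.26, -1.39 and -0.89. Relative to that median, the member regions had a median of -0.24 after 18 h, -0.42 after 48 h and -0.81 after 120 h, with 4, 5 and 4 of 5 regions below 0. The exceptions were the Sdc4 intron 2 region after 18 h, at 0.45, and the Onecut2 start region after 120 h, at 0.13. Of the 5 regions 3 were of Sdc4, 1 of them assigned also to Rbpjl, and none was of Zfp462. Their medians therefore do not stand for the 4 genes alike. No share of all regions below 0 is given beside these counts, which are a description only. Without replicate 1 after 120 h the uncentred median after 120 h was -2.10, and without replicate 2 it was -1.22.

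Between the later timepoints, which the selection did not compare, the heights were tested with limma on log2 summit values over these 15536 regions with Benjamini-Hochberg adjustment. This fit used 1 spread pooled over all regions, which includes shifts shared by a whole library. An adjusted p from it therefore does not measure the spread between the replicates of a single region. From 18 h to 48 h, 0.00644% of all regions were lower and 0% higher, which is 1 and 0 regions, beside 255 and 14 at an unadjusted p under 0.05, and none of the 5 member regions passed. From 18 h to 120 h, 1.45% of all regions were lower and 16.1% higher, and 1 of the 5 member regions was lower and 0 were higher. From 48 h to 120 h, 0.18% were lower and 23.7% higher, and 0 of the 5 member regions were lower and 1 was higher.

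The Sdc4 intron 2 region was lower after 120 h (60 and 51) than after 18 h (110 and 158), by a log2 change of -1.25 (SE 0.37, n = 2 libraries per timepoint, limma adjusted p = 0.0143). From 18 h to 48 h it changed by -1.06 (SE 0.37, limma adjusted p = 1), and from 48 h to 120 h by -0.20 (limma adjusted p = 0.734). The median of all regions rose by 0.45 from 18 h to 120 h, and with the median of each library set equal the change was -1.62 (limma adjusted p = 0.00281). The call was lost when only the 18 h and 120 h libraries were fitted (limma adjusted p = 0.0682), without replicate 1 after 18 h (limma adjusted p = 0.0958) and without replicate 2 after 18 h (limma adjusted p = 0.121), and the change stayed below 0 in all of these. The call held in 13 of 16 alternatives. Those that left out a 0 h or 48 h library kept the same values after 18 h and 120 h, so they could hardly change it.

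The Onecut2 start region was higher after 120 h (385 and 261) than after 48 h (135 and 197), by a log2 change of 0.96 (SE 0.37, limma adjusted p = 0.0445). The median of all regions rose by 0.56 between these timepoints. With equal medians the change was 0.46 (limma adjusted p = 0.152), and the call held in only 3 of 16 alternatives, with adjusted p from 0.00599 to 0.870. A rise beyond that of the median region was therefore not shown.

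**Figure D5:**
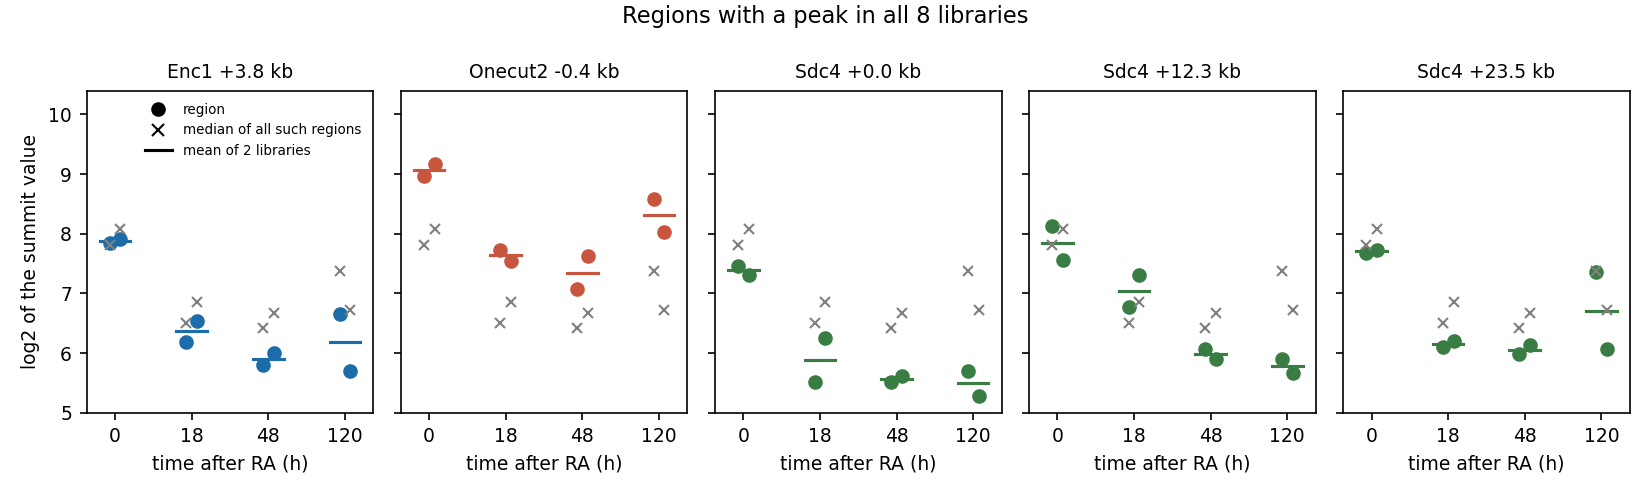
Log2 of the summit value (y axis) against time after RA (x axis, h) for the 5 member regions with a peak in all 8 libraries, with 1 point per library, a bar at the mean of 2 libraries, and crosses at the median of all 15536 such regions in each library. The Sdc4 region 12276 bp from the start lies above the crosses after 18 h, where its values were 110 and 158, and below them after 48 and 120 h.

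The other 3 regions did not pass between later timepoints with all libraries and the deposited scale. The Enc1 intron 1 region changed by -0.46 from 18 h to 48 h and by -0.19 from 18 h to 120 h, and the Sdc4 downstream region at 23540 bp by -0.11 and 0.55, and from 48 h to 120 h by 0.66 (limma adjusted p = 0.174). This region depended on the 120 h replicates of 164 and 67. Without replicate 2 after 120 h it passed from 18 h to 120 h (1.20, limma adjusted p = 0.0102) and from 48 h to 120 h (1.30, limma adjusted p = 0.00421), and without replicate 1 these changes were -0.093 and 0.013. Without replicate 2 after 120 h the Onecut2 start region also passed from 18 h to 120 h (0.95, limma adjusted p = 0.0379). The Sdc4 start region changed by -0.39 from 18 h to 120 h (limma adjusted p = 0.461), and with equal medians by -0.76 (limma adjusted p = 0.0261). It thus passed with equal medians, and not in the values as deposited or with quantile normalization (-0.43, limma adjusted p = 0.236). In all, it passed in 2 of 16 alternatives. The fit gave all regions the same spread, with an SE of 0.37 in each of these contrasts. A region that passed was thus called against that pooled spread, and a region that did not pass is not shown to be unchanged.

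The sequence of the regions was compared over 300 bases around the summit. Their median GC content was 51.3%, beside 51.7% of all 87144 regions, 51.0% of regions at 0 h only and 61.0% of regions with a peak in all 8 libraries. Within the set it was 50.3% in the 13 regions at 0 h only and 54.0% in the 5 with a peak in all libraries. The Sdc4 upstream region was the most AT-rich, with a GC content of 40.3%, and the Enc1 exon 1 region, in 1 library only, the most GC-rich, with 75.3%. Of the 32 regions 8 overlapped a CpG island, and 2 of these had a peak in all libraries.

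Short motifs were searched on both strands, none of the spelled ones containing another. The nuclear receptor half-site AGGTCA was in 8 member regions (25%) and in 15.7% of all regions, and the SOX motif ACAATG also in 8 and in 20.3%. The GC box GGGCGG was in 6 (18.8%, beside 23.5%), the CCAAT box CCAAT in 12 (37.5%, beside 33.6%) and the ETS core CCGGAA in 7 (21.9%, beside 10.6%). The E-box CAGCTG was in 9 regions, beside 19.4% of all regions, the E-box CAGATG in 4, beside 19.7%, and the E-box CACGTG in 3, beside 7.12%. The forkhead motif GTAAACA was in 4 (12.5%, beside 5.21%), and AGATAA and the AP-1 motif TGANTCA were in 2 each, beside 9.92% and 7.91%. The ONECUT motifs ATCAAT and ATCGAT were in 3 and 1, beside 6.97% and 1.05%. The CRE motif TGACGTCA and the CTCF motif were in 1 each, beside 1.01% and 3.01%, and the octamer ATGCAAAT was in 0, beside 1.47%. Most of these counts are of few regions, and a match is not evidence of binding.

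Related genes were examined by their peaks, from lists of the families and partners of the 4 genes and of other markers. Of 9 other heparan sulfate proteoglycans 6 had more peaks in both 0 h libraries than in any later one, which was so in 38.4% of all genes, and such genes are called separated here. Gpc5 and Gpc6, glypicans anchored to the cell surface, differed most, with 20 and 20 peaks against 2 to 3, and 23 and 22 against 3 to 7. Gpc1, Gpc3 and the syndecans Sdc2 and Sdc3 differed by 1.5 to 2.5 peaks, and Sdc1, Gpc2 and Gpc4 overlapped between 0 h and later. Sdc4 with 2.33 was thus within the range of its family.

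Among other cut homeobox genes, 4 of those reported were separated. Over all genes the share was 38.4%, and among those with at least 6 peaks in both 0 h libraries it was 86.5%. Onecut3 had 5 and 6 peaks at 0 h and 0 to 2 later, Onecut1 6 and 5 against 1 to 3, Satb1 7 and 7 against 1 to 5, and Cux1 11 and 12 against 3 to 9, while Cux2 overlapped, with 13 and 11 peaks at 0 h and 11 in replicate 1 after 120 h. All ONECUT genes were thus among those with more peaks at 0 h in the deposited numbers, which were not scaled to the peaks of the library in these lists. Of 17 other BTB and kelch genes only Klhl3, Klhl12, Klhl22 and Kbtbd2 were separated, with Klhl3 at 8 and 12 against 1 to 5, and the list's median difference was 0.5 peaks, beside 1.0 over all genes. Of 6 genes for H3K9 methylation and HP1 proteins, partners of Zfp462 in embryonic stem cells, Ehmt1, Ehmt2 and Cbx5 were separated, with differences of 2.33, 2.83 and 3.0 peaks. These counts are of few genes and, beside the shares over all genes, are not read as traits of the families.

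Of the other undifferentiated spermatogonia markers, 3 of 7 were separated, namely Pou5f1, Zbtb16 and Ptch1, and Nanos2, Lin28a, Neurog3 and Sox3 were not. Zbtb16, which is needed for stem cell maintenance, had 5 and 8 peaks at 0 h and 1 to 3 later. Of the differentiation markers, Stra8 had 6 and 6 peaks at 0 h and 3 to 4 later, and Kit overlapped with 4 and 3 against 1 to 3. More peaks at 0 h were therefore seen in a marker of each state, as in many other genes. Over all genes 38.4% were separated, and 86.5% of those with at least 6 peaks in both 0 h libraries, as Stra8 and Ptch1 have. Neighbours that share regions with the members, Rbpjl, Matn4 and Gm8364, were separated, with differences of 3.5, 4.33 and 2.67 peaks. Their counts include the shared peaks and are no separate observation. Those of Gm8364 equalled the peaks upstream of Zfp462 in every library. In no list was a gene lower at 0 h than in every later library. No share over all genes is given beside this, and both 0 h libraries held more peaks than any later one. It is therefore not read as a trait of the listed genes.

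The genes most like each member, by Pearson's r over 8 libraries of the log2 summed summit values plus 25 among genes with at least 6 peaks in both 0 h libraries, were Itga1, Prickle1 and Efna5 for Enc1 (r = 0.997, 0.996 and 0.995), Tead1, Zmiz1 and Zfp827 for Onecut2 (r = 0.997, 0.997 and 0.996), Pard3, Ccdc149 and 2010111I01Rik for Sdc4 (r = 0.998, 0.995 and 0.995), and Cln8, Dpp6 and Dtx1 for Zfp462 (r = 0.995, 0.992 and 0.991). Such values were frequent, and all genes share the libraries and their numbers of peaks. An r over 0.9 was found for 64.3% of the genes compared with Enc1, 64.7% with Onecut2, 56.1% with Sdc4 and 34.1% with Zfp462. The pattern of Zfp462, with summed summit values of 917 and 979 at 0 h, 102 and 225 after 18 h, 0 and 105 after 48 h, and 148 and 0 after 120 h, was shared by the fewest genes. Itga1, an integrin subunit, had 7 and 8 peaks at 0 h and 1 to 3 later, close to Enc1, and Pard3, a cell polarity gene, had 25 and 25 against 7 to 13.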

How the data were processed

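Chromatin accessibility by ATAC-seq was available for 8 libraries, 2 at each of 4 timepoints, grouped by the sample titles. The authors aligned reads to mm10 (GRCm38) with BWA, removed duplicates, reduced libraries to equal tags, called peaks per library with MACS2 2.1.0 at a cutoff of 1e-07 and assigned genes within 10 kb. The deposited table gives for each peak the signal at its summit, as tag coverage in bins of 32 nt after tags were extended to 200 bp, and no read counts, so the depth behind a peak is unknown. Versions BWA 0.7.12 and bedtools 2.25.0 are from the submitters' processing notes. The browser tracks were not used.

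Peaks sharing at least 1 bp were joined into regions, named by the distance of the highest summit from the start in the deposited table. The merging and the fit were tested on simulated data. Merging gave the right timepoints for all of 2000 regions. The fit called 12% of regions with a simulated log2 change of 1, 98.5% at 2 and 100% at 3. The simulated noise was independent between values, without shifts shared by a library. A region was counted at a timepoint where both libraries had a peak. Log2 summit values were fitted by limma 3.58.1, run in R 4.3.3, with a mean for each of 4 groups, all 8 libraries, moderated variances, no block and an adjusted p threshold of 0.05, in regions with a peak in all 8 libraries, with no scaling beyond that of the authors; other steps used Python 3.11.15. Features were from GENCODE vM21. The members and gene lists, and the alternatives, were chosen with earlier results of these data known. Named were the 4 genes with all their regions, the 3 genes most like each, genes of the lists, and motifs fixed with them. One gene of a list is not reported here. The 6 sequences shown were chosen after their values were seen. Alternatives were the 24643 highest peaks per library, summit values of at least 50, peaks inside the gene or within 1000 bp, distinct regions, a peak in either replicate, windows of 100 bp on each side of summits, median centring, quantile normalization, mean signal, a replicate block, other sets of libraries or regions, an intensity trend, a pseudocount of 1, each library left out and, added after seeing the data, peaks per 10000 peaks of the library.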

Additional observations from a re-analysis of the deposited data

How the results depend on the processing

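The higher number of peaks at 0 h kept its direction in all 4 genes under the alternatives that count peaks or regions, and its size did not. Per 10000 peaks of the library, a scale added after seeing the data, the difference was reversed for Sdc4 (-0.418) and Onecut2 (-0.015) and was 0.232 for Enc1 and 0.672 for Zfp462. With the highest peaks in equal number the difference was 2.0 for Enc1, 1.17 for Onecut2, 1.17 for Sdc4 and 1.67 for Zfp462. With peaks inside the gene or within 1000 bp of the start it was 2.17 for Enc1, 0.333 for Sdc4 and 4.67 for Zfp462, and with summit values of at least 50 it was 6.17 for Onecut2 and 3.67 for Sdc4. The regions at 0 h only were 4 with the highest peaks in equal number and between 6 and 17 with single libraries left out, and those at all timepoints were 9 with a peak in either replicate and 3 with equal numbers. The cause was not tested. The genes most like the members shared 8 of 12 names at a pseudocount of 1.

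The log2 height changes from 0 h of the 5 member regions after 18, 48 and 120 h were -0.24, -0.42 and -0.81 with median centring and -0.28, -0.58 and -0.63 with quantile normalization, both of which remove the shift of all regions. With single libraries left out the change after 120 h lay between -2.10 and -1.22.

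The counts of regions over the genome depended on scaling and on single libraries. From 18 h to 48 h the lower regions were 0 with median centring, 0 with quantile normalization, 2 with mean signal, 6 with only the timepoints compared and 0 to 6 with libraries left out, and the higher ones were 2 with only the timepoints compared and 0 to 2 with libraries left out. From 18 h to 120 h they were 1913 lower with median centring, 831 lower and 588 higher with quantile normalization, 49 lower and 443 higher with only the timepoints compared, and 31 to 769 lower and 92 to 6089 higher with libraries left out, the fewest higher ones without replicate 1 after 18 h. From 48 h to 120 h they were 1158 lower and 1472 higher with median centring, 60 and 69 with quantile normalization, 10 and 1536 with only the timepoints compared, and 0 to 159 lower and 39 to 7831 higher with libraries left out, the extremes of the latter without replicate 1 after 48 h and without replicate 2 after 120 h. The split of higher and lower regions thus depended on whether library medians were set equal.

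Same-numbered replicates did not deviate together at all timepoints (correlations of -0.22 to 0.25). With 2 libraries per timepoint these values cannot decide whether samples were paired, and no pairing was used in the main fit. With a replicate block the counts were 0 lower from 18 h to 48 h, 123 lower and 1470 higher from 18 h to 120 h, and with the block and median centring 0 lower, 2016 lower, and then 1270 lower and 1632 higher from 48 h to 120 h. The Sdc4 intron 2 region kept its call with the block (limma adjusted p = 0.0291), and the Onecut2 start region lost it (limma adjusted p = 0.0687).

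Among the heights, changes of direction were found only in member regions that did not pass the threshold between the timepoints concerned with all libraries and the deposited scale. The Enc1 intron 1 region ranged from -0.66 to 0.29 from 18 h to 120 h with libraries left out, and from 48 h to 120 h from -0.20 to 0.75, with -0.23 under median centring with or without the block. The Sdc4 downstream region at 23540 bp ranged from -0.093 to 1.20 from 18 h to 120 h and was 0.028 from 18 h to 48 h under median centring with or without the block. The Sdc4 start region ranged from -0.68 to 0.046 from 18 h to 48 h and from -0.28 to 0.13 from 48 h to 120 h with libraries left out. The Onecut2 start region was -0.038 from 18 h to 120 h with quantile normalization.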

Other observations

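CpG islands offered a further comparison, made after the values were seen. Of all regions at 0 h with a lower summit value between 100 and 200, 66.7% of those on a CpG island and 29.2% of those without one had a peak in all later libraries. Among the 4 member regions on a CpG island in this class, only the Sdc4 start region had a peak in all libraries, while the Enc1 region 657 bp upstream, the Zfp462 region listed 2729 bp upstream and the region within Rbpjl did not. No explanation was tested.

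6 member regions at 0 h had no peak in either library after 48 h and a peak in at least 1 library after 120 h, and 2 had a peak after 48 h and none after 120 h. In all 6 of the former the peak after 120 h was in replicate 1, the library with the most peaks after RA, and in none was it in replicate 2.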
